A study of Mus musculus with 10 samples.

Results

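The 38 Hox genes considered here were taken by symbol from the authors' FPKM table and ordered by cluster and paralog number, whatever their levels. The list itself was chosen with earlier results of these data known. They are 38 of the 45952 rows of the table, 10 each from HoxA and HoxB and 9 each from HoxC and HoxD, and genes that were barely detected or listed at 0 were kept. Sensory neurons were purified by fluorescence-activated sorting from adult, naïve mice of the Avil-EGFP line (Tg(Avil-EGFP)QD84Gsat/Mmucd, kept on a CD1 background), in which the advillin promoter drives EGFP. All groups carried this transgene and none was injured or treated. The libraries are male DRG (3), female DRG (3), male TG (2) and female TG (2), each from sorted cells of a single mouse. DRG neurons were from lumbar dorsal root ganglia, and TG neurons from the trigeminal ganglia of the head. The gate took GFP-positive, propidium iodide-negative cells, and the labels name satellite glial cells as a contaminant of every library.

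Hox genes encode homeodomain transcription factors that give cells of the embryo their position along the head-to-tail axis. They lie in clusters, all members of a cluster being read in the same direction, and each gene has a paralog number: genes with low numbers, at the 3′ end, are switched on early and reach far forward into the hindbrain, while genes with higher numbers are switched on later and farther back. In the trunk, groups 5 to 9 are best known from the neck and thorax, groups 10 and 11 from lumbar and sacral levels, and groups 12 and 13 from the tail, the limb ends and the genital bud. The trigeminal ganglion forms from cranial neural crest and placode, largely in front of the region where Hox genes are on. FPKM, the unit used throughout, is fragments scaled for transcript length and for the number of mapped reads of the library. Levels of genes can be set side by side only roughly, since listed FPKM did not always follow the mean counts given below.

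All 11 neuron markers that the table holds reached an FPKM of 1 in some library, and they summed to between 7831 and 11678 in DRG and between 8761 and 10500 in TG. Summed satellite glia markers ranged from 1435 to 5610 in DRG libraries and from 4188 to 5585 in TG libraries, and all 10 reached an FPKM of 1 in some library. Summed Schwann cell and myelin markers ranged from 871 to 1373 in DRG and from 1321 to 1909 in TG, with 7 of the 9 tested fitted lower in DRG and none past the test. Their median log2 fold change of DRG over TG was -0.48, against -0.05 for all genes tested. Of the endothelial and mural markers 6 of 10, including Pecam1 and Cdh5, were under an FPKM of 1 in every library, as were 6 of 10 macrophage markers including Csf1r and Ptprc. Other markers of such cells were detected: the macrophage marker Aif1 averaged 12.5 FPKM in DRG and 9.38 in TG, summed fibroblast markers ranged from 26.2 to 65.5 in DRG and from 23.2 to 61.1 in TG, and summed erythroid markers, mostly haemoglobin, from 4.38 to 8.59 in DRG and from 5.59 to 28.9 in TG. The part of these other cells in the Hox values was not tested. In bulk samples such as these, fewer cells of a type and less RNA per cell cannot be told apart. Male DRG replicate 3 stood apart, its rank correlations with the others having a median of 0.849, and had an Avil FPKM of 172. Next came female DRG replicate 1 at 0.869 and female DRG replicate 3 at 0.895. Results are therefore also given without these 3 libraries.

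Hox transcripts were abundant in DRG neurons and nearly missing from the table in TG neurons. Summed over the 38 genes, the listed FPKM was between 122 and 198 in the DRG libraries, against 2.16, 1.67, 1.42 and 2.41 in the TG libraries. No TG library came near any DRG library. Most of the small TG sum was a single gene, Hoxd1: without it the sum was between 116 and 196 in DRG and between 0.429 and 0.807 in TG. A value above 0 was listed in some DRG library for 28 of the 38 genes and in some TG library for 19, and 18 genes averaged an FPKM of at least 1 in DRG, against 1 gene in TG.

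**Figure D1:**
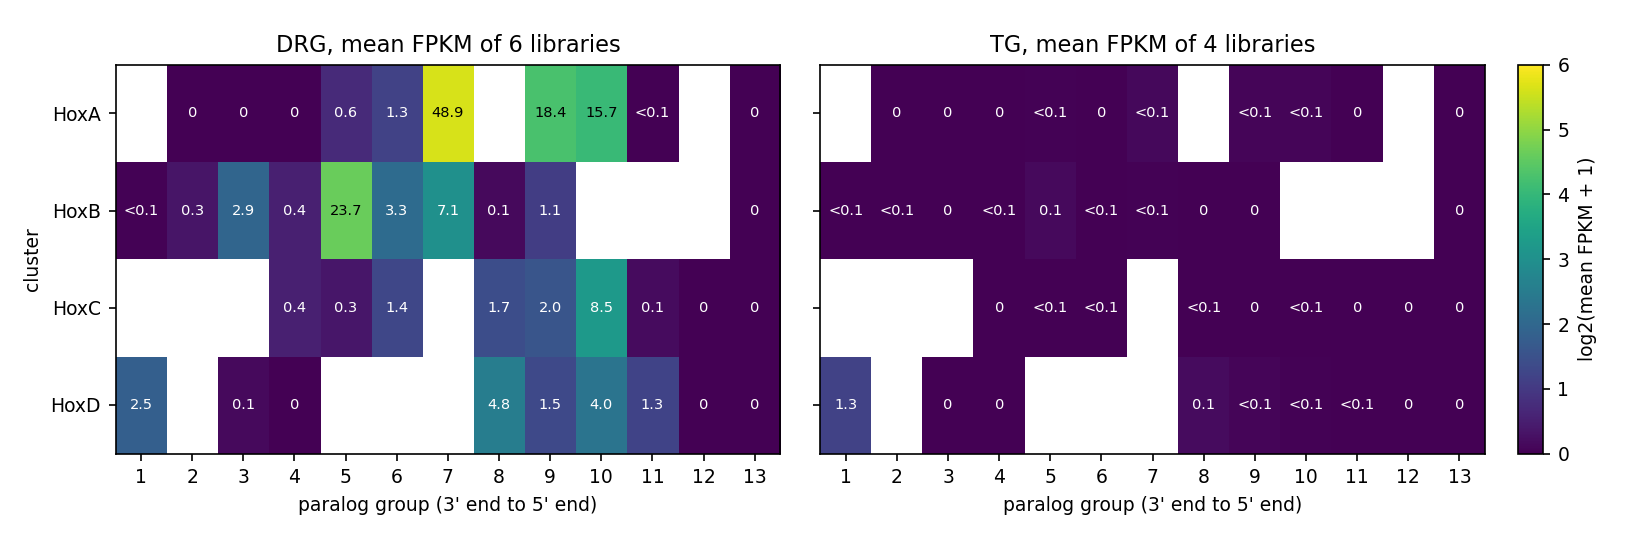
Mean listed FPKM of each Hox gene in 6 DRG libraries (left) and 4 TG libraries (right), with the cluster on the vertical axis, the paralog group on the horizontal axis and colour for log2(mean FPKM + 1). White squares hold none of the 38 genes. In DRG the highest levels lie in groups 5 to 10 and groups 12 and 13 are at 0, while in TG only Hoxd1, at 1.27, exceeds an FPKM of 1.

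Along the clusters, groups 5, 7, 9 and 10 held most of the Hox FPKM in DRG neurons. Paralog group 7 alone gave 35.9% ± 6.06 of the Hox FPKM in a DRG library (SD, n = 6), group 10 gave 19.3% ± 6.003, group 5 gave 15.7% ± 2.97 and group 9 gave 15.04% ± 3.18. Groups 6 and 8, which lie between them, gave 3.88% ± 1.60 and 4.56% ± 1.72. The groups at the 3′ end were low, group 4 at 0.567% ± 0.292 and group 2 at 0.177% ± 0.208, with group 3 at 1.97% ± 0.653 through Hoxb3 and group 1 at 1.84% ± 1.5005 through Hoxd1. At the 5′ end group 11 gave 1.03% ± 0.749, and all 6 members of groups 12 and 13 were listed at 0 in every library. By cluster, HoxA held 55.2% ± 8.54 of the DRG Hox FPKM and HoxB 25.2% ± 3.43, against 9.61% ± 2.40 for HoxC and 10.03% ± 5.58 for HoxD. These shares are descriptions over the 6 DRG libraries and were not tested. They rest on listed FPKM, which was 0 for Hoxa3 and Hoxa4 although their mean normalised counts were 5.54 and 4.62.

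In each cluster a single gene carried much of the sum. Hoxa7 made up 57.6% of the mean HoxA level in DRG, Hoxb5 60.8% of HoxB and Hoxc10 58.8% of HoxC, whereas Hoxd8 reached only 33.9% of HoxD. Hoxa7, Hoxb5, Hoxa9 and Hoxa10 together gave 69.0% of the Hox FPKM of a DRG library on average, with a range of 49.98% to 75.05%. The paralogs of a group were unequal. Of group 9, Hoxa9 averaged 18.4 FPKM in DRG while Hoxc9 averaged 1.97 and Hoxd9 1.501. Of group 5, Hoxb5 averaged 23.7 while Hoxa5 averaged 0.639, and of group 10 the means were 15.7 for Hoxa10, 8.49 for Hoxc10 and 3.96 for Hoxd10.

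The detected genes were ordered by mean level in DRG. Hoxa7 was above Hoxb5 in 6 of 6 DRG libraries, with a mean difference of 25.2 FPKM and an SD of that difference of 11.8. Hoxb5, Hoxa9 and Hoxa10 followed, and neighbours among them differed by less than the SD of their difference. Hoxa10 was above Hoxc10 in 6 of 6 libraries, by 7.21 FPKM with an SD of 5.95. Hoxc10 and Hoxb7 differed by less than that spread, and Hoxb7 was above Hoxd8 in 5 of 6 libraries, by 2.30 FPKM with an SD of 2.17. From Hoxd8 down to Hoxb9 no neighbouring genes differed by more than the SD of their difference, which does not show that their levels were equal.

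DRG and TG were compared in limma, on log2(FPKM + 1) with ganglion and sex as terms, over the 12637 genes detected, which means an FPKM of 1 or more in 2 or more libraries of either ganglion. Of the 38 Hox genes 18 passed this filter, and because 17 of them did so only through their DRG level, the 18 are not a neutral sample of the clusters. At a Benjamini-Hochberg adjusted p under 0.05 over all genes tested, 8 of the 18 were higher in DRG and 0 were lower, against 0.0791% of all genes tested that were higher in DRG (10 genes) and 0.0317% that were lower (4 genes). An unadjusted p under 0.05 was reached by 17 of the 18 Hox genes, all of them higher in DRG, against 2.29% of all genes higher in DRG and 6.35% in either direction. All 6 DRG libraries were above all 4 TG libraries for 15 of the 18, which held for 0.681% of all genes tested. The median log2 fold change of DRG over TG was 1.88 for the 18 Hox genes and -0.05 for all genes tested. The study drew attention to Hox genes on the basis of the same libraries, and the count is no independent evidence of their direction. For Hoxa7 the paper also reports qPCR in separate mice, with the transcript found in lumbar DRG and not in TG.

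**Figure D2:**
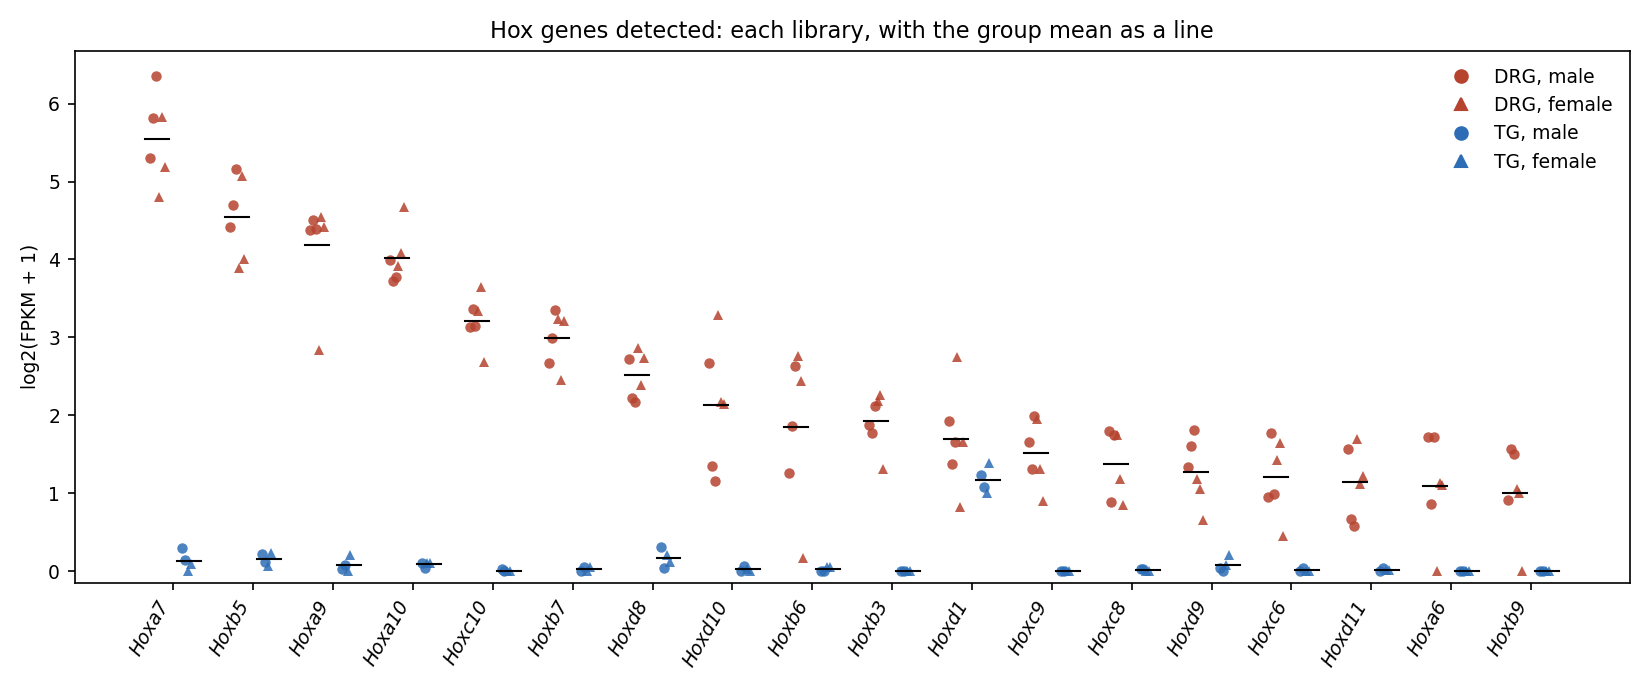
log2(FPKM + 1) of the 18 Hox genes that passed the filter, ordered by mean FPKM in DRG, with 6 DRG libraries (red, left of each gene) and 4 TG libraries (blue, right), circles for male and triangles for female mice and a line at the group mean. TG points lie at or close to 0 for every gene except Hoxd1, where the groups overlap.

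Hoxa7, a homeodomain factor of the thoracic part of the axis and the most abundant Hox transcript here, ranged from 26.9 to 81.2 FPKM in DRG with a median of 46.8, against 0.228, 0.103, 0 and 0.0685 in TG. The lowest DRG library, female DRG replicate 1, was far above the highest TG library. The log2 fold change was 5.42 (standard error 0.28, limma adjusted p = 2.09e-06), the smallest p of all genes tested. Hoxa7 (ENSMUSG00000038236) lies on the minus strand of chromosome 6, from 52214491 to 52221854 (GRCm38, GENCODE M21).

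Hoxb5, a factor of the cervical and upper thoracic part of the axis, ranged from 13.9 to 34.9 FPKM in DRG with a median of 22.8, against 0.161, 0.0861, 0.0434 and 0.170 in TG. Since it had a value in every TG library, a ratio of means can be given, 205 for DRG over TG. The log2 fold change on the FPKM + 1 scale, which shrinks such ratios, was 4.39 (standard error 0.28, limma adjusted p = 1.11e-05). Hoxa7 and Hoxb5 were both lowest in female DRG replicate 1 and highest in male DRG replicate 3, the library whose FPKM over all genes also had the largest sum, 870872, against at most 646684 in the others.

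Hoxa9, which with Hoxa7 is well known from haematopoietic progenitors and leukaemia, ranged from 6.16 to 22.4 FPKM in DRG with a median of 20.1, against 0.02001, 0.0553, 0 and 0.157 in TG. The low DRG value was that of female DRG replicate 1, and the other 5 DRG libraries lay within 19.8 and 22.4. Its log2 fold change was 4.10 (standard error 0.33, limma adjusted p = 6.29e-05). Hoxa10, known for lumbar patterning and for the uterus, ranged from 12.2 to 24.4 FPKM in DRG with a median of 14.5, against 0.0739, 0.0309, 0.0730 and 0.0718 in TG. The ratio of means was 252 and the log2 fold change 3.94 (standard error 0.23, limma adjusted p = 5.20e-06). In contrast to the other abundant genes it was highest in female DRG replicate 3.

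The remaining 4 genes that passed were less abundant. Hoxc10, a lumbar factor known from hindlimb motor neurons, ranged from 5.41 to 11.5 FPKM in DRG with a median of 8.48, against 0.0178, 0, 0 and 0 in TG (a log2 fold change of 3.21, standard error 0.24, limma adjusted p = 3.13e-05). It had the lowest coefficient of variation among DRG libraries of the 18 genes, 0.239. Hoxb7 ranged from 4.49 to 9.23 FPKM in DRG with a median of 7.60, against 0, 0.0333, 0 and 0.0333 in TG (a log2 fold change of 2.96, standard error 0.24, limma adjusted p = 7.93e-05). Hoxd8 ranged from 3.503 to 6.31 FPKM in DRG with a median of 4.92, against 0.237, 0.0301, 0.151 and 0.0884 in TG (ratio of means 38.1, a log2 fold change of 2.35, standard error 0.23, limma adjusted p = 0.000395). After Hoxd1 it had the highest mean level in TG. Hoxb3, an anterior gene known from the hindbrain, ranged from 1.49 to 3.79 FPKM in DRG with a median of 3.01 and was listed at 0 in all 4 TG libraries (log2 fold change 1.92, standard error 0.24, limma adjusted p = 0.00438).

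These 8 genes come from all 4 clusters, 3 from HoxA, 3 from HoxB and 1 each from HoxC and HoxD, and from paralog groups 3, 5, 7, 8, 9 and 10. Without the 3 DRG libraries that stood apart the same 8 passed, together with Hoxb6 and Hoxc9.

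**Figure D3:**
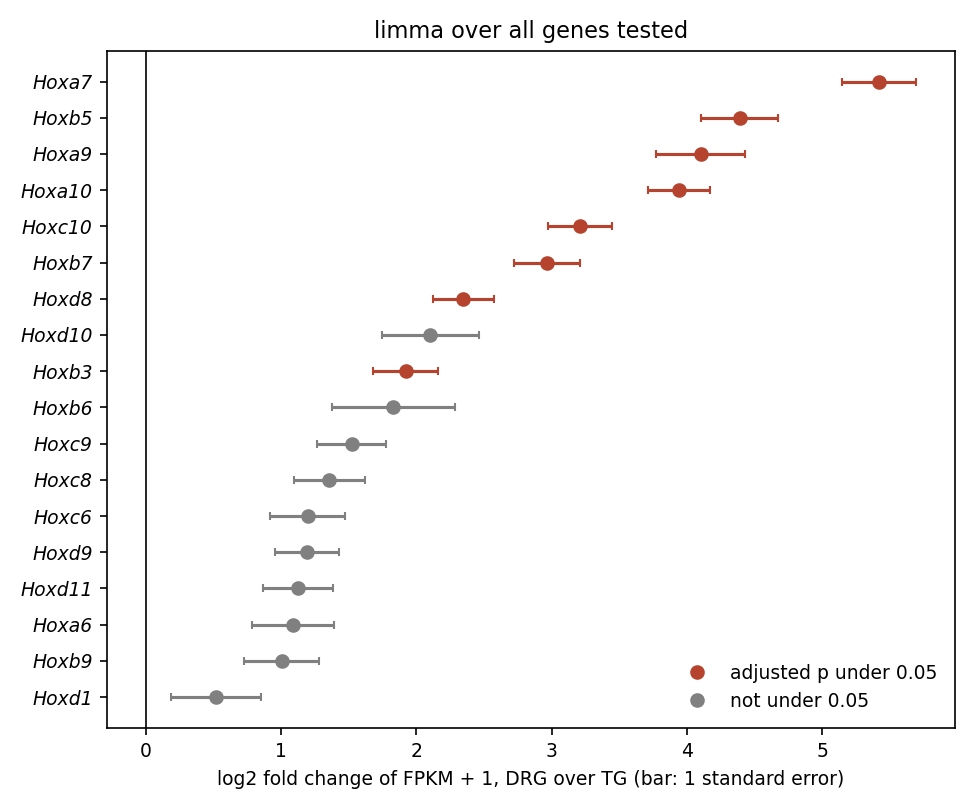
Log2 fold change of FPKM + 1 for DRG over TG in limma for the 18 Hox genes, with bars of 1 standard error, in red where the adjusted p is under 0.05 and in grey where it is not. All 18 lie to the right of 0, from 0.52 for Hoxd1 to 5.42 for Hoxa7.

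The other 10 genes that passed the filter did not pass the test. The paper, using DESeq2 on the same libraries, listed Hoxa6, Hoxb6, Hoxc6, Hoxc8, Hoxc9, Hoxd9 and Hoxd10 among genes expressed in DRG only. Not passing here thus does not show that their levels were alike in the ganglia. Hoxc9 missed the threshold narrowly: it ranged from 0.866 to 2.99 FPKM in DRG with a median of 1.82 and was listed at 0 in all TG libraries (log2 fold change 1.52, standard error 0.26, limma adjusted p = 0.0516). Hoxd10, which acts with Hoxc10 in lumbar motor neurons, ranged from 1.23 to 8.73 FPKM in DRG with a median of 3.45, against 0, 0.0451, 0.0227 and 0 in TG (a log2 fold change of 2.10, standard error 0.36, limma adjusted p = 0.0557). Its coefficient of variation among DRG libraries, 0.701, was the highest of the 18. For both genes every DRG library was above every TG library. Hoxc9 passed without the 3 DRG libraries that stood apart, at an adjusted p of 0.0385 in limma, and Hoxd10 did not.

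Hoxc8, known from brachial and thoracic levels, ranged from 0.796 to 2.46 FPKM in DRG, against 0.0150, 0.0219, 0 and 0 in TG (limma adjusted p = 0.107). Hoxd9 ranged from 0.571 to 2.52 FPKM in DRG, against 0.0313, 0, 0.0570 and 0.149 in TG (limma adjusted p = 0.116). Hoxd11, a gene of the lumbosacral transition and of the forearm, ranged from 0.490 to 2.24 FPKM in DRG, against 0, 0.0231, 0.0116 and 0.0113 in TG (limma adjusted p = 0.212). In these 3 genes too the DRG libraries lay above all TG libraries.

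The group 6 genes were all detected and none passed. Hoxb6 ranged from 0.125 to 5.79 FPKM in DRG with a median of 3.52, against 0, 0, 0.0327 and 0.0324 in TG (a log2 fold change of 1.83, standard error 0.46, limma adjusted p = 0.286). Female DRG replicate 3 alone was near the TG values, and without that library the adjusted p was 0.0172 in limma, with a log2 fold change of 2.21. Hoxc6 ranged from 0.370 to 2.40 FPKM in DRG, against 0, 0.0264, 0 and 0 in TG (limma adjusted p = 0.229). Hoxa6 had DRG values of 2.30, 0.817 and 2.29 in males and of 0, 1.18 and 1.15 in females, and was listed at 0 in every TG library (limma adjusted p = 0.408). Hoxb9, of group 9, was likewise at 0 in all TG libraries and in 1 DRG library, female DRG replicate 3, with the other DRG values between 0.884 and 1.95 (limma adjusted p = 0.402).

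Hoxd1 was the exception. This gene, of the 3′ end of HoxD, is known in the mouse from developing nociceptors, where it follows nerve growth factor signalling and shapes their axons. It had FPKM values of 2.81, 1.60 and 2.15 in male DRG, 5.70, 0.765 and 2.14 in female DRG, 1.35 and 1.12 in male TG, and 0.995 and 1.61 in female TG. The groups overlapped, and the lowest value of all was that of a DRG library. DRG averaged 2.53 ± 1.70 (SD, n = 6) and TG 1.27 ± 0.269 (SD, n = 4), a ratio of 1.99 and a log2 fold change of 0.52 (standard error 0.33, limma adjusted p = 0.807; two-sided exact permutation p = 0.157). That p does not show the ganglia to be alike, and much of the difference lay in female DRG replicate 1, without which the log2 fold change was 0.29 (standard error 0.25). It was 0.15 (standard error 0.27) without the 3 DRG libraries that stood apart. For the other 17 genes that passed the filter the exact permutation p was at most 0.0381, unadjusted. Those genes passed the filter through their DRG level, so these p are no independent support. Hoxd1 made up nearly all of the 66.8% ± 3.09 of the TG Hox FPKM that fell to group 1 (SD, n = 4). Its gene (ENSMUSG00000042448) lies on the plus strand of chromosome 2, from 74762980 to 74765142 (GRCm38, GENCODE M21), 58.4 kb from the start of Hoxd8.

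The promoter windows of Hoxa7 and Hoxa9, the most and the third most abundant in DRG, are shown with those of Hoxd8, a gene called higher in DRG, and of Hoxd1, a gene of the same cluster that was found in both ganglia. Each holds 250 bases before and 50 after the RefSeq start (GRCm38.p6), in the direction of transcription, with matches to the motifs below in capitals. The GENCODE M21 genes start farther upstream for Hoxa7, at 52221854, and for Hoxa9, at 52231089, so both windows lie inside the annotated genes. Those of Hoxd8 and Hoxd1 hold the GENCODE starts, at 74704615 and 74762980.
Hoxa7 promoter, chr6:52218524-52218823, minus strand: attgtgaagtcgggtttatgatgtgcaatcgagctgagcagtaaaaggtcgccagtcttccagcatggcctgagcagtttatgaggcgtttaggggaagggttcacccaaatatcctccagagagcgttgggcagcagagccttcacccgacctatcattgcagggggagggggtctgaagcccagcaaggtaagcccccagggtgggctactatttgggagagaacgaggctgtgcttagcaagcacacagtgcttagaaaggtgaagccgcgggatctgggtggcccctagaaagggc
Hoxa9 promoter, chr6:52227321-52227620, minus strand: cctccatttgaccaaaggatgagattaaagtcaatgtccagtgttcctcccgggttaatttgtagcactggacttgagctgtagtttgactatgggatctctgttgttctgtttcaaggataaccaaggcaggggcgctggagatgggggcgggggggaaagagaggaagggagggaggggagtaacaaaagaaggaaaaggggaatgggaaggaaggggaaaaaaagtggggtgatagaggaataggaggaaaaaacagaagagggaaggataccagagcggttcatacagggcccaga
Hoxd8 promoter, chr2:74704365-74704664, plus strand: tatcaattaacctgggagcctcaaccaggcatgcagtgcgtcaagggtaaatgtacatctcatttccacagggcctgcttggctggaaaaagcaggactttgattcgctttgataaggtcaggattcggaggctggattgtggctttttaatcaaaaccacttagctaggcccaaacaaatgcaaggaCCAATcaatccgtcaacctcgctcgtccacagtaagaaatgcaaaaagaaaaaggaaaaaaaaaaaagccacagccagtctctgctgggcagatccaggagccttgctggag
Hoxd1 promoter, chr2:74762730-74763029, plus strand: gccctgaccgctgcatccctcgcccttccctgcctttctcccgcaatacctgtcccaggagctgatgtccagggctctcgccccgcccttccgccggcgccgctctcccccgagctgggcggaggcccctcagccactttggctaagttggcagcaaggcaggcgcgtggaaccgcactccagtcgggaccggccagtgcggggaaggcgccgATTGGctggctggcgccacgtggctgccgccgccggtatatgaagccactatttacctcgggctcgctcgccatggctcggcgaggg

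RefSeq windows were matched for 22 of the 38 genes, 24 windows in all because Hoxa10 and Hoxd11 have a pair each. The CpG content varied widely, with 9 CpG in the Hoxa7 window, 4 in that of Hoxa9, 6 in that of Hoxd8 and 29 in that of Hoxd1, and the GC content was 46.7% for Hoxd8 and 69.7% for Hoxd1. The median was 14.5 CpG over the 24 Hox windows, and 7 over all 32851 windows of the table. Of 4 motifs searched on both strands, with overlapping matches of different motifs counted for each, the CCAAT box was in 15 of the 24 Hox windows and in 37.4% of all windows. The TATA box TATAAA was in 4 Hox windows and 13.6% of all, TGATNNAT, which Hox proteins bind together with Pbx, was in 4 and 8.85%, and TTTATGG, bound by caudal (Cdx) factors, was in 1 (Hoxd4) and 2.75%. Among the 4 windows printed, the capitals mark 1 CCAAT box each in Hoxd8 and Hoxd1 (as its reverse complement in Hoxd1) and no other match. These matches describe letters in the windows only.

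Of the 20 genes that did not pass the filter, 10 had some value above 0 and 10 were listed at 0 in every library. Hoxa5, known from the lung and the cervical axis, ranged from 0.409 to 0.963 FPKM in DRG, against 0, 0.0653, 0.0219 and 0 in TG, and Hoxb4 from 0.116 to 0.621 in DRG, against 0.0128, 0, 0.0156 and 0 in TG. These were the only 2 of the 20 with every DRG library above every TG library. How often this holds among all genes under the filter was not counted, so whether 2 is unusual is not known. Hoxc4 ranged from 0 to 0.949 FPKM in DRG, Hoxb2 from 0 to 0.960 and Hoxc5 from 0 to 1.14, with TG values of at most 0.0253 in any of the 3. Hoxc11 and Hoxd3 reached at most 0.577 and 0.646 in DRG, Hoxb8 at most 0.417, and Hoxb1 and Hoxa11 stayed under 0.1. The 10 genes listed at 0 throughout were Hoxa2, Hoxa3, Hoxa4, Hoxa13, Hoxb13, Hoxc12, Hoxc13, Hoxd4, Hoxd12 and Hoxd13.

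A listed 0 need not mean that no read was found. In the authors' mean normalised counts, averaged over all 10 libraries, Hoxa3 had 5.54 and Hoxa4 4.62, while Hoxa2 had 0.122, Hoxd4 0.168 and the other 6 had 0. Of the 23651 genes listed at an FPKM of 0 in every library, 1497 had a mean normalised count of at least 5. The same column gave 459 for Hoxa7, 276 for Hoxb5, 178 for Hoxa10 and 172 for Hoxa9, and at most 10.5 for any of the 20 genes under the filter. It did not separate the genes by the filter: Hoxd11, which passed, had 4.34, below Hoxc5 at 10.5 and Hoxa4 at 4.62, which did not. Because this mean runs over both ganglia, it does not tell them apart.

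Among the DRG libraries the clusters did not move as a block. Of the 18 genes, female DRG replicate 3 was the lowest library for 8, female DRG replicate 1 for 4 and male DRG replicate 3 for 3. Female DRG replicate 1 was the highest for 5 genes, as was male DRG replicate 3, with its larger FPKM sum, for another 5. Hoxd1, Hoxd8, Hoxd10 and Hoxd11 were all highest in female DRG replicate 1, where HoxD gave 19.9% of the Hox FPKM, against 4.99% in male DRG replicate 3. The HoxA share was smallest in female DRG replicate 1, at 39.0%, and largest in female DRG replicate 3, at 63.8%. Both of these libraries and male DRG replicate 3 were those that stood apart over all genes.

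**Figure D4:**
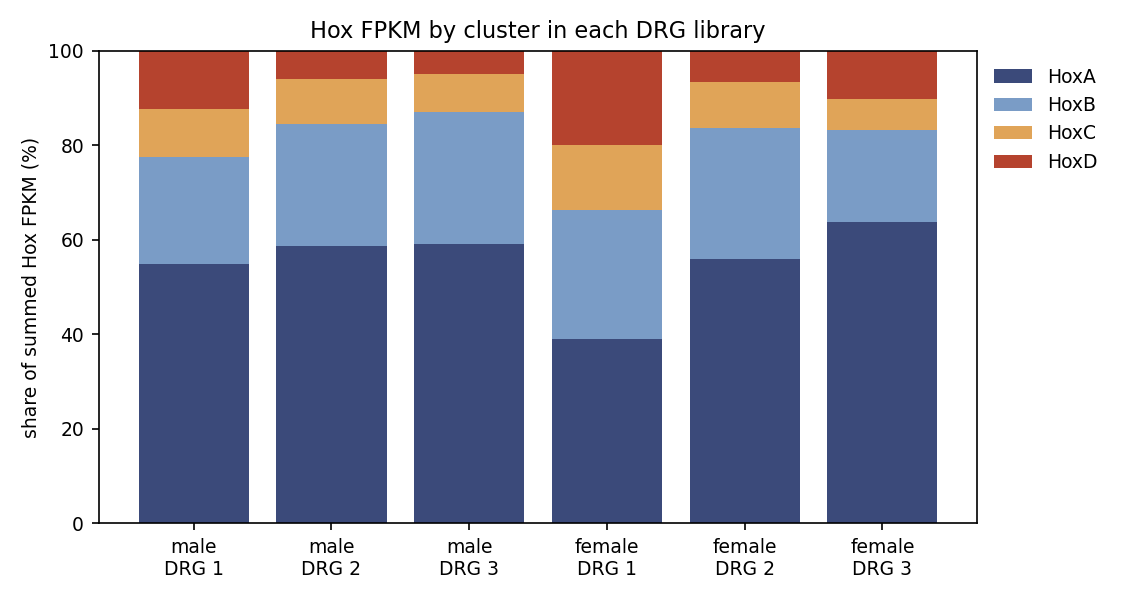
Share of the summed Hox FPKM (%) that falls to HoxA, HoxB, HoxC and HoxD in each of the 6 DRG libraries, 3 male and 3 female. HoxA lies between 39.0% and 63.8%, and HoxD is largest in female DRG replicate 1, at 19.9%.

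No Hox gene passed the test between male and female mice. Of the 18 genes, 0 passed for male over female in limma, against 0.0237% of all genes tested (3 genes), and 0 had an unadjusted p under 0.05, against 4.10% of all genes. The log2 fold changes of male over female ran from -0.48 for Hoxd10 (standard error 0.35) to 0.41 for Hoxa6 (standard error 0.29), 13 of them above 0. Their median was 0.05, against -0.04 for all genes tested. For the interaction of ganglion and sex, 0 Hox genes and 0 of all genes passed, and at an unadjusted p under 0.05 there were 0 Hox genes and 1.17% of all genes. Hoxa7 averaged 58.3 ± 21.5 FPKM in male DRG and 39.5 ± 14.99 in female DRG (SD, n = 3 each), and Hoxd10 2.71 ± 2.30 in male DRG and 5.21 ± 3.05 in female DRG, with overlapping libraries in both genes. Hoxd9, named after its values were seen, was at 1.52, 2.05 and 2.52 FPKM in male DRG and at 1.27, 1.07 and 0.571 in female DRG. Its log2 fold change of male over female was 0.33 (standard error 0.23, limma adjusted p = 0.816). In DRG its male and female values did not overlap, while in TG the female values, 0.0570 and 0.149, lay above the male values, 0.0313 and 0. Those of Hoxb4, Hoxb8 and Hoxc4, which were under the filter, did not overlap in DRG either. The share of all genes that separate in this way was not counted, so the separation cannot be read as a sex difference.

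The Hox genes were then read beside the authors' mean FPKM for DRG cells of another study, in which magnetic beads were used to enrich neurons. That mean comes from other libraries, normalised separately, with no per-library values used here, so it is given as a description with no test. No source used here states the spinal level of its ganglia, so level, sorting method and study cannot be told apart. Of the 37 Hox genes in that table, 22 had a mean of at least 1, among them 16 of the 18 detected in sorted lumbar neurons. The order of the genes was similar. Spearman rho between the 2 studies was 0.788 across the 37 genes and 0.664 across the 18, against 0.703 across 12383 of the genes tested. Genes are not independent points, and no p is given. Hoxa7 led in both, at a mean of 48.9 FPKM in sorted lumbar neurons and 19.8 in magnetically sorted cells, whereas Hoxd8 was at 4.82 in sorted lumbar neurons and at 12.8 in magnetically sorted cells.

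The shares of the groups differed between the 2 studies, and the cause was not tested. Group 7 gave 35.9% of the Hox FPKM on average in sorted lumbar neurons and 19.98% in magnetically sorted cells, and group 10 gave 19.3% and 10.99%. Group 6 gave 3.88% in sorted lumbar neurons and 6.60% in magnetically sorted cells, and group 8 gave 4.56% and 12.99%. Group 3 gave 1.97% in sorted lumbar neurons and 8.46% in magnetically sorted cells, and group 4 gave 0.567% and 4.94%. Groups 12 and 13 were at 0 in both. Of the 20 genes under the filter in sorted lumbar neurons, 6 had a mean of at least 1 in magnetically sorted cells: Hoxd3 at 7.04, Hoxa5 at 4.17, Hoxb2 at 3.05, Hoxa4 at 2.02, Hoxb4 at 1.82 and Hoxc4 at 1.57. All 6 belong to groups 2 to 5. Hoxd1 had a mean of 2.53 in sorted lumbar neurons and 5.17 in magnetically sorted cells.

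**Figure D5:**
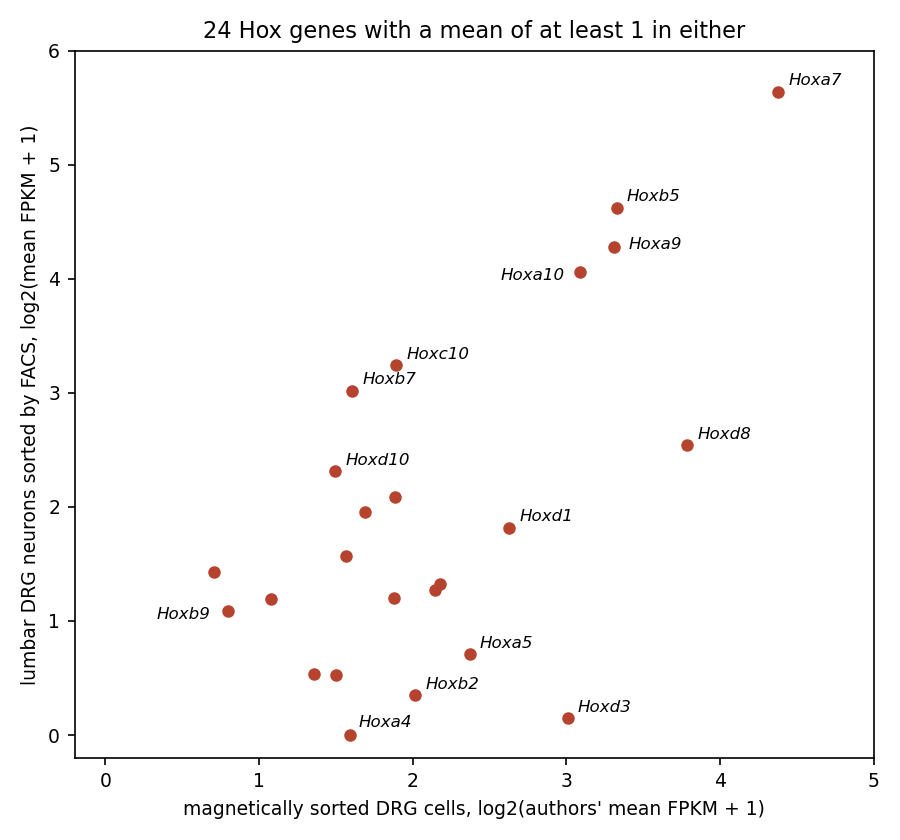
Mean FPKM of 24 Hox genes in 6 libraries of lumbar DRG neurons sorted by FACS (vertical axis) against the authors' mean FPKM in magnetically sorted DRG cells (horizontal axis), both as log2(mean FPKM + 1). Hoxa7 is highest on both axes, and Hoxd3, at 0.108 and 7.04, lies near the bottom right.

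The genes that act with Hox proteins or on the clusters showed no change past the test. TALE cofactors, the Meis, Pbx and Pknox proteins that bind DNA beside Hox proteins, were tested for 9 of 9 members: 0 passed, and 8 were fitted lower in DRG, with a median log2 fold change of -0.34, against -0.05 for all genes. Meis2 averaged 1.99 ± 1.34 FPKM in DRG and 8.30 ± 4.07 in TG (SD, n = 6 and 4; limma unadjusted p = 0.000904, adjusted p = 0.212), and Meis1 averaged 1.78 ± 1.65 in DRG and 4.11 ± 0.986 in TG (limma adjusted p = 0.647). Of the Polycomb proteins, which keep Hox genes silent, 16 of 21 were tested, and of the Trithorax proteins, which keep them active, 10 of 10. None passed in either list, with medians of -0.16 and -0.19.

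In the retinoic acid pathway, whose signal switches on Hox genes of the 3′ end in the embryo, 11 of 18 genes were tested and 0 passed. Aldh1a3, which makes retinoic acid, averaged 0.775 ± 0.549 FPKM in DRG and 3.84 ± 1.507 in TG (limma unadjusted p = 0.000216, adjusted p = 0.107). Cyp26b1, which breaks it down, averaged 1.64 ± 1.15 in DRG and 0.240 ± 0.120 in TG (limma adjusted p = 0.645). The paper, using DESeq2 on the same libraries, lists Cyp26b1 among genes expressed in DRG only. The receptor gene Rarg averaged 3.26 ± 1.18 in DRG and 5.98 ± 0.337 in TG (limma adjusted p = 0.647). Of 9 upstream regulators of the clusters, among them Cdx1, Cdx2 and Cdx4, 2 passed the filter and 0 the test.

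Exons of 7 of the 18 detected Hox genes overlap another annotated gene in GENCODE M21, for 3 of them on the other strand, and since the counting is not stated to use strand, reads there cannot be assigned. For Hoxa7, 20.4% of 2876 exon bases are shared with the antisense gene Hoxaas3, which was listed at 0 FPKM in every library but had a mean normalised count of 96.9. For Hoxb3, 52.9% of 4251 exon bases are shared with the antisense gene Hoxb3os, at 0.151 to 0.964 FPKM in DRG and at most 0.0174 in TG. For Hoxb5 the shared part is 3.59%, with Hoxb5os, listed at 0 FPKM in every library but with a mean normalised count of 121.5. Hoxc10 shares 8.70% of its exon bases with Hoxc5, and Hoxd10 5.73% and Hoxd11 10.8% with Gm28309. Gm28309 was at 3.09 to 10.4 FPKM in DRG and 0 in TG, yet had a mean normalised count of 0. The share of exon bases does not bound the share of reads, so how uncertain the values of these genes are is not known. Hoxa9 overlaps only the microRNA gene Mir196b, in 1.52% of its exon bases, and Hoxa10, Hoxb7, Hoxd8 and Hoxd1 overlap no annotated gene.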

How the data were processed

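RNA of FACS-purified Avil-EGFP neurons was sequenced in 10 libraries (6 lumbar DRG, 4 TG). Per the labels and the paper's methods, the authors aligned reads to mm10 with STAR, kept uniquely mapped reads and deposited FPKM from Cufflinks; versions are not given in the sources used here. FPKM summed to 543862 to 870872 per library. The commonest ratio between low values of 2 libraries places relative depths within a factor of 1.58. Read counts per library were not used, so precision rests on the spread between mice. A deposited signal, the authors' mean over libraries of counts divided by DESeq2 size factors, was used only as a check of genes listed at 0. The authors' mean FPKM of magnetically sorted DRG cells of another study was used as a description; that of its dissociated cells was not used here. Columns with the authors' fold changes and p-values were not used, nor were 22 per-sample columns, which hold libraries of the other study or repeat FPKM.

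Genes with FPKM of at least 1 in at least 2 libraries of DRG or of TG (12637) were fitted as log2(FPKM + 1) in limma 3.58.1 (R 4.3.3; lmFit, eBayes with trend) with ganglion and sex, p-values being adjusted by Benjamini-Hochberg over all of them. Fold changes on this scale understate changes of low genes. The steps were tested on simulated data. Single genes were compared by two-sided exact permutation over 210 splits (Python 3.11.15). Positions are from GENCODE M21 (GRCm38), promoters from RefSeq.

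DRG and TG libraries with the same number in their descriptions met the limit set for pairs, but the reported fit has no block, which was an alternative: their deviations from the group means correlated in 4 of 4 pairs (0.123 to 0.410, all above the limit of 0.1), and for 3 of the 4 the same-numbered TG library was also the best match. No source used here states a shared mouse. Title numbers gave no such pairs. The named genes are all 38 members and, of each pathway list, those that passed or up to 3 with the smallest p. Members and lists were chosen with earlier results of these data known. Alternatives were other pseudocounts, filters, scalings, terms, weights, blocks and sets of libraries.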

Additional observations from a re-analysis of the deposited data

Results flagged for a closer look

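In the 20 sets of libraries with an FPKM of at least 1 for a Hox gene, 2 held a library farther from the rest than Dixon's limit allows, and chance alone gives about 1 such set in 20. Hoxa9 was at 6.16 FPKM in female DRG replicate 1, below the next lowest DRG library at 19.8. Hoxa10 was at 24.4 FPKM in female DRG replicate 3, above the next highest DRG library at 15.96. Both genes passed with each of these libraries left out.

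Hoxa3 and Hoxa4 were listed at an FPKM of 0 in all 10 libraries, yet the authors' mean normalised counts were 5.54 for Hoxa3 and 4.62 for Hoxa4. Both exceed 0.3, the mean that 3 counts over 10 libraries would give. Which libraries hold these reads was not tested.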

How the results depend on the processing

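Of the Hox genes higher in DRG, the same 8 passed under the alternatives tried, except that Hoxb3 fell under the filter at an FPKM of 5 (7 passed). The count was 8 to 10 with each library left out, 11 with a pseudocount of 0.1 and 17, all but Hoxd1, with array weights. No Hox gene was lower in DRG or passed for sex or for the interaction under any of them. For all genes, the count higher in DRG (10) was 66 with array weights, 16 in the 8 libraries with title numbers without a block, 23 without the 3 DRG libraries that stand apart and 10 to 16 with each library left out (16 without male DRG replicate 3). The count lower in DRG (4) was 1 and 2 with pseudocounts of 0.1 and 0.5, 7 with no filter (genes at 0 in every library left out), 2 at an FPKM of 5, 52 with array weights, 2 in the 8 libraries numbered in the descriptions without a block, 8 without the 3 DRG libraries and 1 to 9 with each library left out. The causes were not tested. The replicate block by description number gave 13 and 4 of all genes and the same 8 Hox genes as the reported fit to 10 libraries. Without the block those 8 libraries gave 9 Hox genes, with Hoxd10 at a limma adjusted p of 0.0489, against 0.102 with the block. The block by title number gave 8 Hox genes and 10 and 2 of all genes. Where TG values are at or near 0, fold changes depend on the pseudocount.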
